A study of Mus musculus with 9 samples.

Results

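The genes described here are those that set whether a cell leaves the G1 phase of its cycle: the D-type cyclins Ccnd1, Ccnd2 and Ccnd3, their kinases Cdk4 and Cdk6, the kinase inhibitors Cdkn1b, Cdkn2b and Cdkn2c, and Ccng2, a cyclin family member. All 9 genes, of 12393 with a probe set of their own, were chosen by name, and every probe set that the platform annotation gives to 1 of them was taken, 21 of 22626. RNA came from TAMH cells, a hepatocyte line from mouse liver labelled C57BL/6, derived from animals that carry a TGF-alpha transgene, so the transgene was present in treated and control cells alike. Cells were exposed to 2 mM acetaminophen (APAP), to 2 mM of its meta regioisomer (AMAP), or to control culture medium, and were harvested after 2, 6 or 24 h. Each treatment and time was represented by 1 Affymetrix mouse 430A_2 array, on RNA from 2 confluent dishes per treatment, so a difference at a single time is the difference between 2 arrays. It has no replicate check and is given without a p. TAMH is a single line, and the study's title asks how p53 contributes to the different responses to the more and the less hepatotoxic isomer.

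D-type cyclins are made when a cell receives growth signals. They bind Cdk4 or Cdk6, and the active kinase phosphorylates the retinoblastoma protein, which frees E2F factors to start the genes of S phase. Proteins of the INK4 family, to which Cdkn2b (p15) and Cdkn2c (p18) belong, hold Cdk4 and Cdk6 away from the cyclins, while Cdkn1b (p27) belongs to the Cip/Kip family and blocks mainly cyclin E with CDK2. Ccng2 encodes an unconventional cyclin that is high in resting cells and slows the cycle; FoxO transcription factors induce it, and growth signals that act through AKT lower it. Hepatocytes are mostly at rest in the adult liver, and cyclin D1 is the D-type cyclin best known for their return to the cycle after injury.

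All values are log2 units after RMA and are compared within a probe set only. Of the 21 probe sets, 15 reached 5.66, the median over all values, on all 9 arrays and 5 lay below it on all 9; Cdk6 lay above it on 6 arrays. The label of the cells was matched by hepatocyte markers, of which 9 of 10 measured were above that median on every array (Cyp2e1 was not). Markers of endothelial cells were below it throughout (7 of 7), as were 6 of 7 of macrophages and 6 of 8 of stellate cells. The macrophage exception was Cd14, at 9.91 to 10.36 over the arrays. Those of stellate cells were Dcn, at 9.49 to 10.81, and Des, which was above that median on some arrays. Of 4 cholangiocyte markers 3 were above it, and their list mean at 2 h was 7.33 in APAP, 6.92 in AMAP and 6.42 in control; its part in the results at 2 h was not tested. The arrays of APAP at 6 and 24 h and of AMAP at 24 h stood apart in the spike-in control dap, a bacterial RNA, whose middle probe set read -1.72, -1.58 and -1.94 log2 against its 3′ probe set, while the other 6 arrays lay between -0.60 and -0.44. A second pair of dap probe sets gave -1.03, -0.42 and -0.73 on these 3 arrays, where the other 6 lay between -0.80 and -0.61, so only APAP at 6 h was low by both. Every difference at 6 h that involves APAP and every treated difference at 24 h rests on these arrays, and their part in it was not tested.

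Ccng2 was about 3.5-fold lower in APAP than in control at 2 h, in both of its probe sets, and near control in AMAP. The first probe set, 1416488_at, read 6.78 in APAP, 8.45 in AMAP and 8.59 in control at 2 h. The second, 1448364_at, read 6.76 in APAP, 8.38 in AMAP and 8.52 in control. The APAP array of 2 h was the lowest of all 9 arrays in both. The differences from control were -1.82 and -1.76 log2, or 3.52-fold and 3.39-fold lower, and ranked 5 and 6 from the lowest of 22626 probe sets. At that time 0.552% of all probe sets were at least 2-fold lower in APAP than in control, with the brighter array reaching that median, the rule for every 2-fold count below. Against AMAP at 2 h the APAP values were lower, with differences of -1.68 and -1.62 log2, where 0.588% of all probe sets were 2-fold lower.

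Later the Ccng2 readings of APAP lay closer to control, and the control itself differed between times. At 6 h probe set 1416488_at read 7.32 in APAP, 7.87 in AMAP and 7.59 in control, and at 24 h 8.56, 8.11 and 8.69 in the same order. For 1448364_at the readings in APAP, AMAP and control were 8.21, 7.47 and 7.70 at 6 h and 8.81, 8.29 and 8.43 at 24 h. The probe sets thus disagreed on the direction of APAP against control at 6 h (-0.27 and 0.51) and at 24 h (-0.13 and 0.38). In control medium alone the 6 h array was lower than the 2 h array (differences of -0.997 and -0.82 log2), and the 24 h array was higher than the 6 h array by 1.10 and 0.73. For 24 h against 6 h in control, 0.919% of all probe sets were at least 2-fold higher, and 1416488_at was among them. For 6 h against 2 h neither Ccng2 probe set reached 2-fold, where 0.632% of all probe sets were 2-fold lower at 6 h than at 2 h.

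The 250 bases before the Ccng2 start are shown because Ccng2 gave the largest 2 h difference among these genes. They come from RefSeq (GRCm38.p6, chr5:93267323-93267572, + strand, 5′ to 3′) with capitals on the letters CAAAACAA, the insulin response sequence of FoxO-bound promoters such as that of Igfbp1.
Ccng2 promoter: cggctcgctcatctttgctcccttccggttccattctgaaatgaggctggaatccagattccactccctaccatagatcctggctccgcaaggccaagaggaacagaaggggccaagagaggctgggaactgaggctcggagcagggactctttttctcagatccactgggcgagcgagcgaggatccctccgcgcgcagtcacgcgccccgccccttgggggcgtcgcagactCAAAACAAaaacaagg
The match begins 16 bases before the start, and 2.21% of 32851 promoter windows of the same length hold these letters on either strand. The forkhead core TGTTTAC, found in 3.17% of windows, and the AP-1 letters TGACTCA, in 4.46%, were not in this window. The motifs were chosen with the values known, and a match is a description of letters only. RefSeq windows were matched for 7 of the 9 genes. No window was available for Ccnd1 or Ccnd2, so these were not searched.

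**Figure D1:**
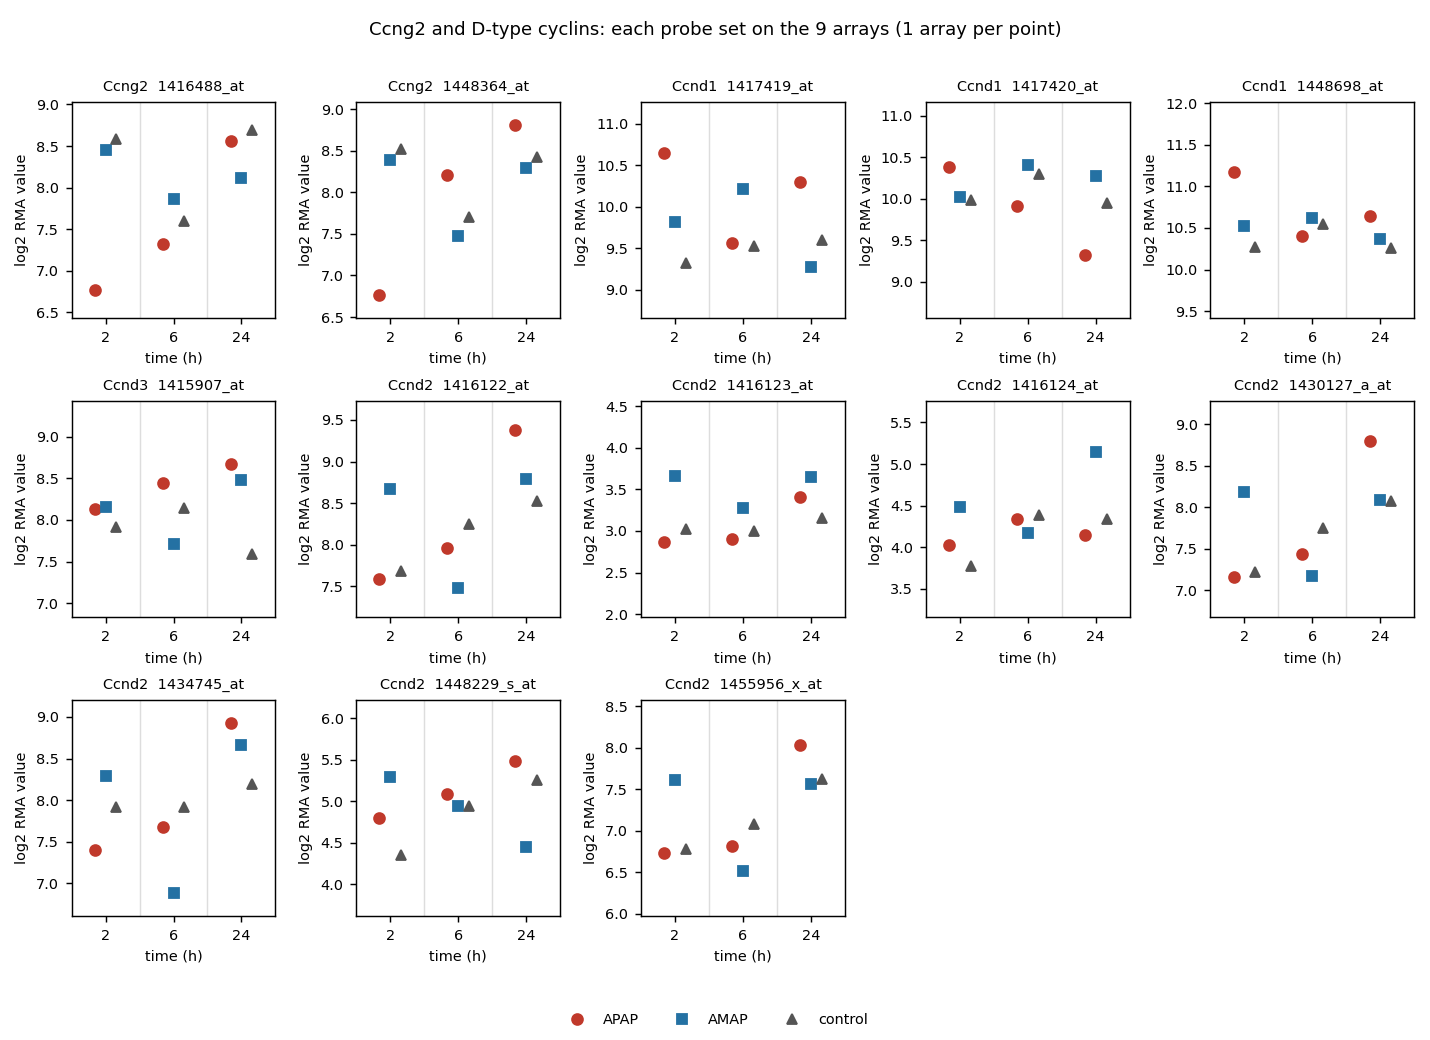
Log2 RMA values (y axis) of every probe set of Ccng2, Ccnd1, Ccnd3 and Ccnd2 at 2, 6 and 24 h (x axis), 1 point per array, for APAP (circles), AMAP (squares) and control (triangles); each panel spans the same number of log2 units. Both Ccng2 panels show the APAP array of 2 h as the lowest point, near 6.8, and the Ccnd2 panels show AMAP as the highest treatment at 2 h.

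Ccnd1, the cyclin of the growth-factor response in hepatocytes, was higher in APAP than in control at 2 h in all 3 probe sets. Probe set 1417419_at read 10.65 in APAP, 9.82 in AMAP and 9.32 in control, and 1448698_at read 11.17, 10.52 and 10.28 in the same order. The third, 1417420_at, read 10.38, 10.02 and 9.99. APAP was the highest treatment of that time in each, and the highest of all 9 arrays in the first and the second of these probe sets. The APAP differences from control were 1.33, 0.90 and 0.39 log2, so that 1 of the 3 reached 2-fold (1417419_at, at 2.51-fold), where 0.455% of all probe sets did. AMAP lay between APAP and control in all 3, higher than control by 0.49, 0.25 and 0.03.

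At the later times the Ccnd1 probe sets parted. At 6 h 1417419_at read 9.57 in APAP, 10.22 in AMAP and 9.53 in control, and all 3 probe sets were lower in APAP than in AMAP, by -0.65, -0.22 and -0.50 in the order above. At 24 h 1417419_at read 10.30 in APAP, 9.27 in AMAP and 9.60 in control, while 1417420_at read 9.32, 10.28 and 9.95. The difference of APAP from AMAP was thus 1.03 in the one and -0.96 in the other, opposite in sign and alike in size, and 0.28 in 1448698_at. At 24 h 1.1% of all probe sets were 2-fold higher in APAP than in AMAP, and 1417419_at was at 0.99, short of it, after median centring. Since probe sets of a gene share the RNA and the array, no direction for Ccnd1 at 24 h was taken from them.

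Ccnd2, the D-type cyclin that several tissues use beside or in place of Ccnd1, was higher with the other isomer at 2 h. All 7 of its probe sets were higher in AMAP than in control, by 0.37 to 0.98 log2, none of them 2-fold. All 7 were lower in APAP than in AMAP, by -1.09 to -0.46. Of all probe sets 45.7% were higher in AMAP than in control at 2 h, by any size. The 7 include dim probe sets, 1416123_at, 1416124_at and 1448229_s_at, which lay below the median of all values on every array. Its brightest probe set, 1416122_at, read 7.59 in APAP, 8.67 in AMAP and 7.69 in control. Probe set 1430127_a_at read 7.16 in APAP, 8.19 in AMAP and 7.22 in control. In these, APAP stood at the level of control and AMAP above both, with an APAP difference from AMAP of -1.09 and -1.02, past 2-fold; the second was -0.98 after median centring. Probe set 1455956_x_at gave the same order, with 6.73, 7.61 and 6.78. In 1434745_at, with 7.40, 8.29 and 7.92, APAP was below control by -0.52. Suffixes _a, _s and _x mark probe sets that can bind further transcripts, and the probe sets may overlap in sequence, so 7 readings are not 7 measurements.

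At 6 h the 4 brighter Ccnd2 probe sets were lowest in AMAP, and at 24 h highest in APAP. For 1416122_at the 6 h readings were 7.96 in APAP, 7.48 in AMAP and 8.25 in control, and those of 24 h were 9.38, 8.79 and 8.53. AMAP was lower than control at 6 h by -0.77, -0.57, -0.57 and -1.03 in 1416122_at, 1430127_a_at, 1455956_x_at and 1434745_at, of which the last reached 2-fold, as did 0.128% of all probe sets. It did not reach 2-fold after cyclic loess (-0.94) or median centring (-0.99). APAP was higher than control at 24 h by 0.85, 0.72, 0.41 and 0.74 in the same order, none of them 2-fold. In control medium 3 of these 4 were themselves higher at 24 h than at 2 h by 0.84 to 0.85, and 1434745_at by 0.28. The other 3 Ccnd2 probe sets (1416123_at, 1416124_at and 1448229_s_at) lay below the median of all values on every array, between 2.87 and 5.49, and at 24 h they differed in direction from one another in both AMAP and APAP against control.

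Ccnd3 was the D-type cyclin with the largest difference from control at 24 h, in both treatments. Its single probe set, 1415907_at, read 8.14 in APAP, 8.15 in AMAP and 7.91 in control at 2 h. At 6 h it read 8.45, 7.71 and 8.14, and at 24 h 8.67, 8.48 and 7.59. The 24 h differences from control were 1.09 in APAP, where 1.65% of all probe sets were 2-fold higher, and 0.89 in AMAP. The APAP difference was 1.01 after cyclic loess and 0.95, short of 2-fold, after median centring. The 24 h control was the lowest of the 9 arrays, with a difference of -0.32 from the 2 h control, so part of each difference lay on the control side. No second probe set was there to set beside it.

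Cdk4, the kinase partner of the D-type cyclins, stayed within 0.65 log2 of control in all 3 probe sets. Its brightest, 1422441_x_at, read 10.42 in APAP, 10.18 in AMAP and 10.35 in control at 2 h, 10.83, 10.27 and 10.29 at 6 h, and 10.35, 10.64 and 10.18 at 24 h. At 2 h all 3 probe sets were lower in AMAP than in control, by -0.26 to -0.17, and all 3 higher in APAP, by 0.06 to 0.13, which is within the residual SD of 0.21 to 0.29 log2 of these probe sets over treatments and times. At 24 h all 3 were higher in AMAP than in control, by 0.11 to 0.65, and lower in APAP than in AMAP, by -0.38 to -0.26. The Cdk4 promoter is shown because it carries several E-boxes (CACGTG, in capitals), the letters bound by MYC and related factors; they come from RefSeq (GRCm38.p6, chr10:127063285-127063534, + strand, 5′ to 3′).
Cdk4 promoter: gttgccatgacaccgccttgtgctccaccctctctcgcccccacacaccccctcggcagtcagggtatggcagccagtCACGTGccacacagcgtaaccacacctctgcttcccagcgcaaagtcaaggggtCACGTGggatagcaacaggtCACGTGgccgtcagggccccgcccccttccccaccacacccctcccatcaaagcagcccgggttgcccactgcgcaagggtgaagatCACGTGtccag
It holds 4 matches, which begin 172, 118, 98 and 11 bases before the start. At least 1 is found in 6.02% of the 32851 windows and 4 or more in 7 of them. The Cdk6 window holds 1 E-box and the Ccng2 window none. Among the 7 genes with a window, which leave out Ccnd1 and Ccnd2, the forkhead core was found once, in 1 of the Ccnd3 windows.

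Cdk6, the second D-cyclin kinase, was dim and varied more than Cdk4. Probe set 1460291_at read 6.51 in APAP, 6.16 in AMAP and 5.77 in control at 2 h, 5.22, 6.08 and 5.62 at 6 h, and 6.19, 4.79 and 5.82 at 24 h. AMAP at 24 h was the lowest of the 9 arrays, -1.04 against control, where 2.56% of all probe sets were 2-fold lower, and APAP was higher than AMAP by 1.41. At 6 h the order of the isomers was the other way, with APAP lower than AMAP by -0.85. The residual SD was 0.62 log2, and 3 of the 9 values lay below the median of all values.

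Among the inhibitors, Cdkn1b was lower than control in both treatments at 24 h, without reaching 2-fold. Its brighter probe set, 1434045_at, read 6.19 in APAP, 6.39 in AMAP and 6.69 in control at 2 h, 5.85, 6.61 and 5.98 at 6 h, and 5.73, 5.73 and 6.56 at 24 h. The differences of 24 h were -0.83 in APAP and -0.83 in AMAP (after cyclic loess APAP was at -1.03, past 2-fold), and APAP was below control at each time. Like Ccng2, this probe set was lower in control at 6 h than at 2 h, by -0.72. The other, 1419497_at, lay between 3.81 and 4.23 and showed no difference over 0.27 from control, which at this level says little of the gene.

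Cdkn2b and Cdkn2c are the INK4 genes measured here. Cdkn2c (1416868_at) read 6.78 in APAP, 6.60 in AMAP and 6.92 in control at 2 h, 7.346, 6.979 and 7.002 at 6 h, and 6.998, 6.989 and 6.834 at 24 h, so that no treatment was more than 0.34 log2 from its control. Cdkn2b (1449152_at) was below the median of all values on every array, between 3.98 and 4.89, and was highest in APAP at 6 h, by 0.52 over control and 0.91 over AMAP. For comparison Cdkn1a, the p53-induced inhibitor p21, which is not one of these genes, read 9.22 in APAP, 10.35 in AMAP and 8.67 in control at 2 h. At 2 h p21 was thus highest in AMAP, as Ccnd2 was, and the brighter Cdkn1b probe set, Cdkn2b and Cdkn2c were at -0.31, 0.07 and -0.32 from control in AMAP.

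**Figure D2:**
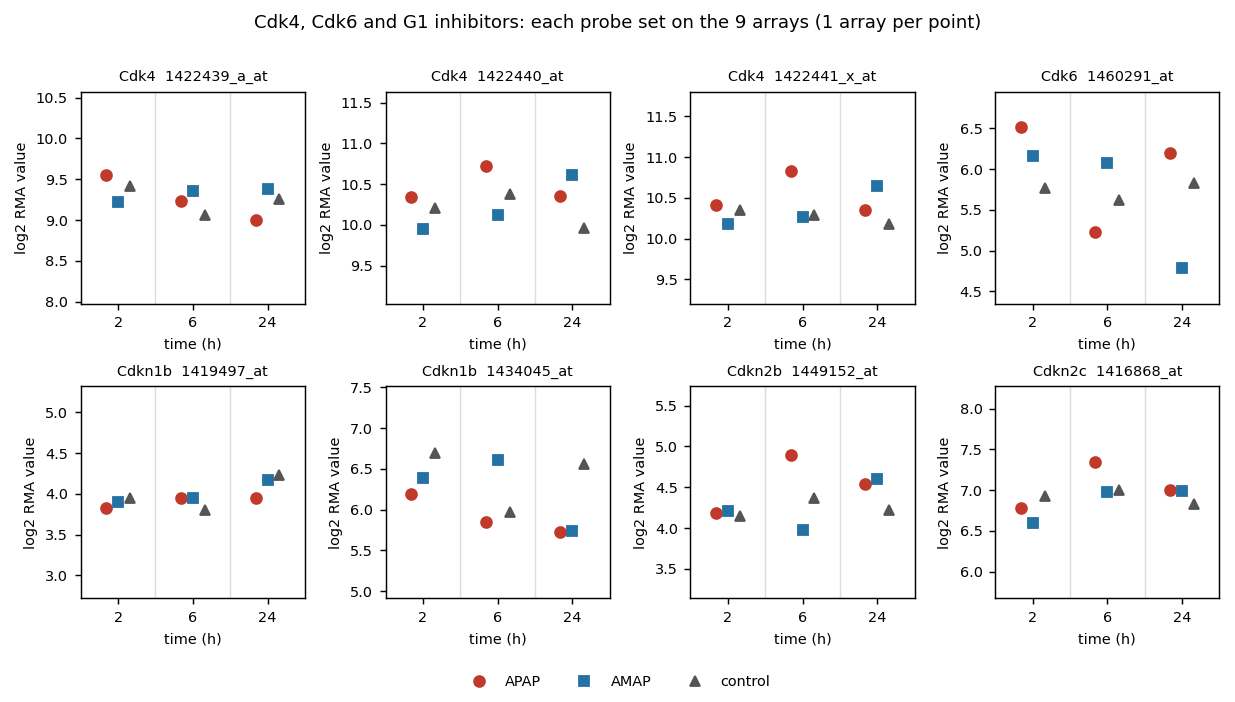
Log2 RMA values (y axis) of every probe set of Cdk4, Cdk6, Cdkn1b, Cdkn2b and Cdkn2c at 2, 6 and 24 h (x axis), 1 point per array, for APAP (circles), AMAP (squares) and control (triangles), drawn to the same span as the plot of the cyclins. Cdk4 and Cdkn2c stay close together, while Cdk6 spans 4.79 to 6.51.

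Across the 21 probe sets, 2-fold differences were few. For APAP against control at 2 h, 1 was higher (Ccnd1), as were 0.455% of all probe sets, and 2 were lower (Ccng2), as were 0.552%. At 6 h none was called, where 0.893% of all were higher and 3.56% lower. At 24 h 1 was higher (Ccnd3), as were 1.65% of all, and none lower, as were 3.19%. For AMAP against control, none was called at 2 h, where 0.694% of all were higher and 0.199% lower. At 6 h 1 was lower (Ccnd2), as were 0.128% of all, and none higher, as were 1.32%. At 24 h 1 was lower (Cdk6), as were 2.56% of all, and none higher, as were 0.354%. For APAP against AMAP at 2 h, 4 were lower, both probe sets of Ccng2 and 2 of Ccnd2, as were 0.588% of all, and none was higher, as were 0.212%. At 6 h none was called, where 2.03% of all were higher and 6.21% lower. At 24 h 2 were higher (Ccnd1 and Cdk6), as were 1.1% of all, and none lower, as were 0.88%. With the brightest probe set of each of the 9 genes, the median difference at 2 h was 0.04 for APAP against control, 0.07 for AMAP against control and -0.01 for APAP against AMAP, beside 0.00 over 12393 genes in each. At 6 h these medians were 0.31, -0.02 and 0.48, beside 0.10, -0.12 and 0.23 over all genes, and at 24 h 0.37, 0.16 and 0.20, beside 0.17, 0.16 and 0.00.

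**Figure D3:**
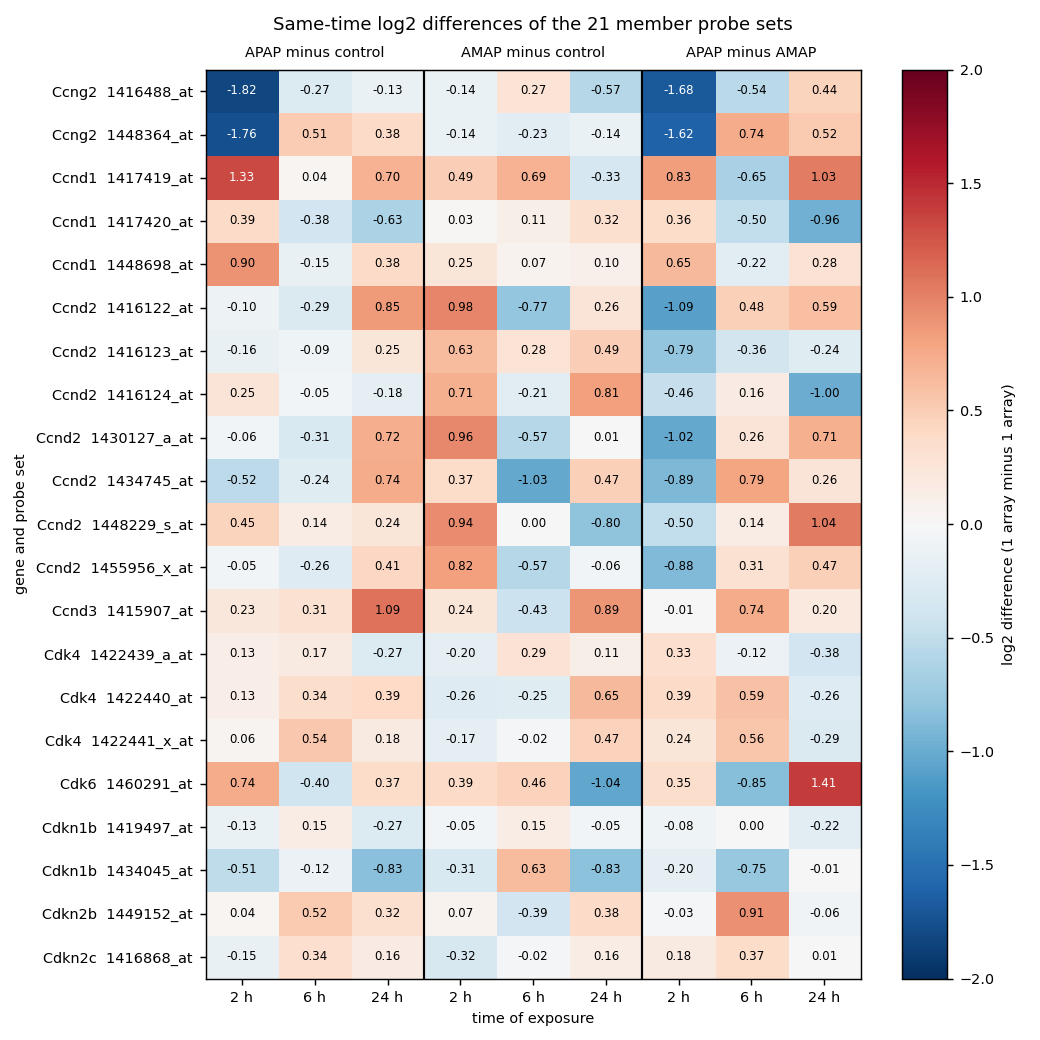
Log2 differences between 2 arrays of the same time for the 21 probe sets (rows) in the 3 comparisons at 2, 6 and 24 h (columns); red is higher and blue lower in the treatment named first, and each cell prints its value. The 2 Ccng2 rows are the darkest blue at 2 h in APAP against control and against AMAP, at -1.82 to -1.62, and the 7 Ccnd2 rows are all blue in APAP against AMAP at 2 h.

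Whether a treatment moved these genes in the same way at 2, 6 and 24 h was asked with a limma model of treatment, blocked by time, which leaves 4 residual degrees of freedom. None of the 21 probe sets, and 0% of all 22626, reached 0.05 after adjustment in the 3 contrasts. Before adjustment, p was under 0.05 for 1636 probe sets in APAP against control, 124 in AMAP against control and 1045 in APAP against AMAP. Among these were 0, 1 and 1 of the 21, in that order, and the 1 was the dim Ccnd2 probe set 1416123_at each time. A difference at a single time counts as spread in this fit, which bears on Ccng2.

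For Ccng2 the shared difference of APAP from control was -0.74 ± 0.37 log2 (SE; 95% interval -1.59 to 0.11) in 1416488_at, with a limma adjusted p = 0.623, and -0.29 ± 0.45 (-1.31 to 0.73) in 1448364_at, adjusted p = 0.807. Without the 2 h arrays the values were -0.20 and 0.44, so that the second changed sign. Without the 3 arrays that stood apart they were -1.71 and -1.78. Leaving those 3 out keeps only the 2 h array of APAP, so no APAP value given without them is a shared effect. Each such value sets that array against a control level fitted from the AMAP and control arrays of 2 and 6 h. It can therefore differ from the measured difference at 2 h. The isomers differed by -0.59 (-1.44 to 0.26) in 1416488_at and by -0.12 (-1.14 to 0.90) in 1448364_at, intervals that hold both 0 and a 2-fold difference. Ccnd1 gave 0.69 ± 0.32 (-0.05 to 1.42; limma adjusted p = 0.623) for APAP against control in 1417419_at, which was 0.37 without the 2 h arrays and 1.38 without the 3 arrays that stood apart, and -0.21 in 1417420_at. Ccnd3 gave 0.54 ± 0.25 (-0.04 to 1.12; limma adjusted p = 0.623), and Cdkn1b in 1434045_at -0.49 ± 0.25 (-1.07 to 0.09; limma adjusted p = 0.623). Without the 24 h arrays the Ccnd3 and Cdkn1b differences were 0.27 and -0.31, and without the 3 arrays that stood apart 0.06 and -0.27. Their measured differences of APAP from control at 2 h were 0.23 and -0.51.

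Some probe sets held a direction at all 3 times. APAP was higher than control at each time in 6 of the 21 (1 each of Ccnd1, Ccnd2, Ccnd3 and Cdkn2b, and 2 of Cdk4), where 21.3% of all probe sets were, and lower in 2 (Ccng2 and Cdkn1b), where 9.97% were. AMAP was higher in 3 (2 of Ccnd1 and 1 of Ccnd2; 6.12% of all) and lower in 1 (Ccng2; 6.63%). APAP was higher than AMAP in 1 (Cdkn2c; 14.6%) and lower in 2 (Ccnd2 and Cdkn1b; 7.13%). For APAP against control the shares, 6 and 2 of 21, were near those of all probe sets, and no second probe set of Ccnd1, Ccnd2, Ccng2 or Cdkn1b shared its partner's direction there at all 3 times.

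The genes whose profile was nearest to a member's were found as the smallest root mean square distance of time-centred log2 values over the 9 arrays, among 6699 genes. This was done for the 4 members whose brightest probe set spanned at least 1 log2 between treatments at some time. Nearest to Ccng2 were Usp11, a deubiquitinase, at a distance of 0.20, Dgat2, which makes triglycerides, at 0.22 and Enpp5 at 0.23, where the Ccng2 profile itself had a root mean square of 0.51. Dgat2 read 6.89 in APAP, 8.06 in AMAP and 8.31 in control at 2 h. It shares the order of Ccng2 there because it was picked for a like profile on these arrays. The Ccng2 profile here is that of 1448364_at alone. The other probe set, 1416488_at, differed from it in direction for APAP against control at 6 and 24 h. Nearest to Ccnd2 were Smox, the spermine oxidase, at 0.13, Hspb1, a small heat shock protein, at 0.15 and Rap1gap at 0.15, against 0.40 for Ccnd2 itself. Nearest to Ccnd3 (0.33 itself) were Sac3d1 at 0.05, Sap30bp at 0.07 and Siva1, a proapoptotic factor, at 0.07, and nearest to Cdk6 (0.43) were Rab5c, of early endosomes, at 0.12, Taok1, a kinase, at 0.15 and Kank2 at 0.15. The distances are a description of these 9 arrays.

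The surrounding pathway was set beside the members in 7 lists of 4 to 15 measured genes, each gene by its brightest probe set. No gene of any list passed the limma fit, and at 2 h 2-fold differences were again few. Of the other CDK inhibitors, Cdkn1a was 2-fold higher in AMAP than in control (1.68 log2, where 0.75% of 12393 genes were higher) and 2-fold lower in APAP than in AMAP (-1.13, where 0.686% were lower), and Cdkn2d, the INK4 protein p19, was at -0.25 and 0.23. Among 14 genes of cyclin E, CDK2 and the pocket proteins none was 2-fold apart at 2 h. E2f8, a repressor of E2F targets, was higher in APAP than in control by 0.65, and the pocket proteins Rbl1 and Rbl2 were lower than control with either isomer, by -0.41 and -0.44 in APAP and by -0.61 and -0.54 in AMAP. Among 12 genes of D-cyclin and p27 turnover none was 2-fold apart; Rnf123, a subunit of the p27 ligase KPC, was at -0.61 in APAP and -0.38 in AMAP, and Cks1b, the Skp2 cofactor for p27, at 0.15 and -0.42. Of the other cyclins, Ccni was lower in APAP than in control by -0.66, and Ccng1, the p53-induced relative of Ccng2, was higher in AMAP by 0.65 and in APAP by 0.27.

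Of 15 measured FoxO factors and targets, 12 were below control in APAP at 2 h, where 48.1% of all genes were, with a median of -0.21 log2 beside 0.00. In AMAP 8 were below it, where 48.7% of all genes were, with a median of -0.05. Only 9 of the 15 had a mean that reached the median of probe-set means, and the list was not tested. The dimmer genes (Foxo4, Insr, Irs2, Klf2, Sesn1 and Fbxo32) were all below control in APAP. Of the 9 brighter genes, Pdk4, Trib1 (0.43) and Cited2 (0.04) lay above it. The genes added here were named after their values were seen. Foxo1 read 6.74 in APAP, 7.27 in AMAP and 7.54 in control, and Foxo3 7.07, 7.55 and 7.60. Against these, Pdk4, a FoxO target that restrains glucose oxidation, was 2-fold higher in both treatments, with 7.89 in APAP, 7.85 in AMAP and 6.71 in control; 0.508% of all genes were 2-fold higher in APAP. Txnip, a further target, read 7.46 in APAP, 9.94 in AMAP and 7.81 in control, a difference of -2.48 between the isomers. Bcl2l11, which encodes the death inducer BIM, read 8.38, 9.32 and 8.84. Klf2, named after its value was seen because it alone of the 7 lists was 2-fold lower in AMAP than in control at 2 h, was at -1.05, where 0.242% of all genes were 2-fold lower.

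Genes upstream of the D-type cyclins and of Cdkn2b differed by less than 2-fold in APAP at 2 h. Of the mitogen list (9 measured), Myc was higher than control by 0.76 in APAP and 0.47 in AMAP, and Tgfa lower by -0.56 and -0.61. Of 11 genes of TGF-beta input, 9 lay above control in APAP, where 47.3% of all genes did, with a median of 0.18 beside 0.00. In AMAP 8 lay above it, where 45.7% of all genes did, with a median of 0.09. The list was not tested. Tgfb1 read 6.29 in APAP, 6.09 in AMAP and 5.29 in control, and Smad7, the feedback inhibitor of the pathway, 6.09, 6.60 and 5.50, 2-fold higher in AMAP. Cdkn2b, whose induction by TGF-beta is well known, was at 0.04 and 0.07 at that time, at a level below the median of all values.

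**Figure D4:**
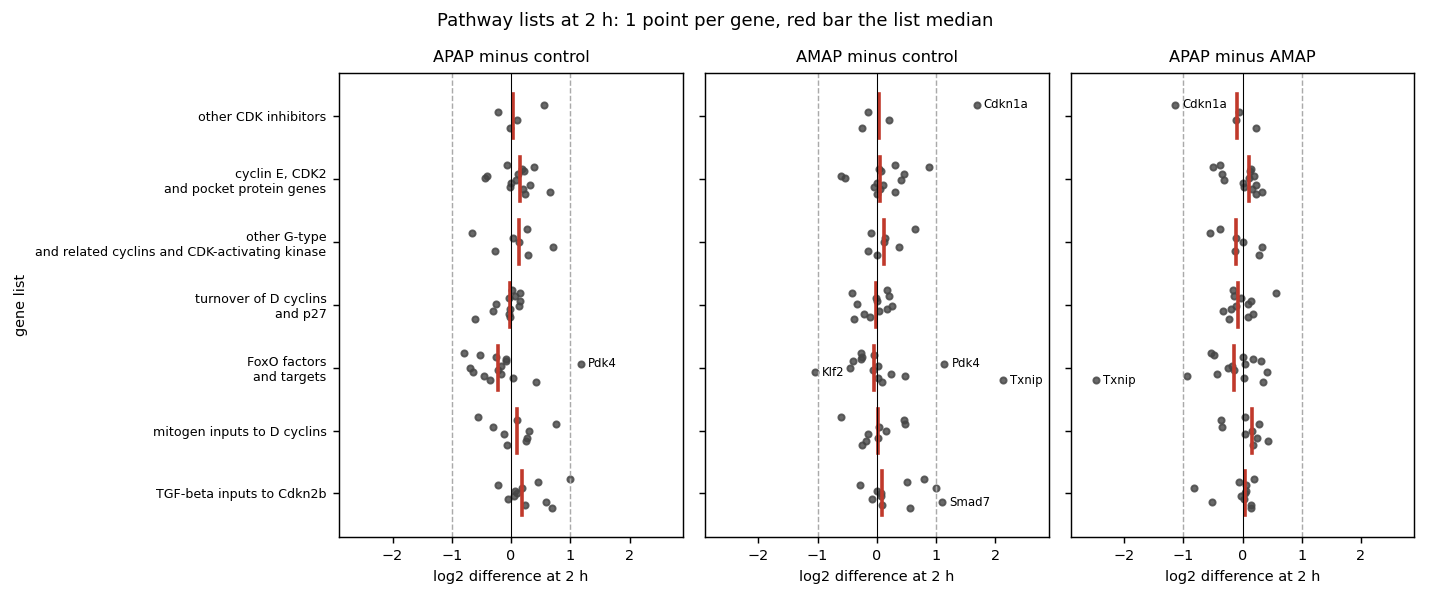
Log2 differences at 2 h (x axis) for the genes of the 7 pathway lists (y axis), 1 point per gene, in APAP against control, AMAP against control and APAP against AMAP; red bars are list medians, dashed lines mark 2-fold, and genes at or past 2-fold are named. Most points lie between the dashed lines. Txnip lies farthest out, at 2.13 in AMAP against control and -2.48 in APAP against AMAP.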

How the data were processed

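The deposited log2 values, 1 per probe set and array, are RMA output of Affymetrix Expression Console (submitters' processing notes). Neither its version nor whether the 9 arrays were normalized in 1 run is stated in the labels. RMA equalizes intensity distributions, which hides any overall shift in RNA, and compresses low signals. Groups came from sample titles, and symbols from GEO's platform annotation. The 64 control probe sets of 22690 were not tested. Differences were taken between arrays of the same time, and a 2-fold call needed the brighter array to reach 5.66, the median over all values. The shared fit used limma 3.58.1 (R 4.3.3) on all 22626 probe sets, treatment blocked by time, with Benjamini-Hochberg adjustment at 0.05, and was checked on simulated data. The members and lists were chosen with earlier results of these data known. Named genes are all members, up to 4 per list with the largest 2 h difference and a mean reaching the median, Cdkn1a, and the 3 nearest profiles of members spanning 1 log2. Nothing in the labels gives further cultures per group, and the number of arrays limits the precision. Alternatives covered the filter, normalization, variance prior, block, arrays and times used, fold threshold and probe-set choice.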

Additional observations from a re-analysis of the deposited data

Results flagged for a closer look

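In 7 probe sets of 5 genes the same comparison passed 1.5-fold in opposite directions at different times with the brighter array reaching the overall median. The share of all probe sets that did so was not taken, so this count stands without a background and is not a trait of these genes. With 1 array per group the difference between the times was not tested. For AMAP against control, Ccnd2 1416122_at was at 0.98 log2 at 2 h and -0.77 at 6 h, and Cdkn1b 1434045_at was at 0.63 at 6 h and -0.83 at 24 h. For APAP against AMAP, Ccnd1 1417419_at was at 0.83 at 2 h, -0.65 at 6 h and 1.03 at 24 h. Ccnd2 was at -1.09 at 2 h and 0.59 at 24 h in 1416122_at, at -1.02 at 2 h and 0.71 at 24 h in 1430127_a_at, and at -0.89 at 2 h and 0.79 at 6 h in 1434745_at. Ccng2 1448364_at was at -1.62 at 2 h and 0.74 at 6 h, while its partner 1416488_at was at -0.54 at 6 h. Cdk6 1460291_at was at -0.85 at 6 h and 1.41 at 24 h. The 6 h and 24 h values involve the arrays that stood apart in the dap ratio, except for AMAP against control at 6 h, and their part was not tested.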

How the results depend on the processing

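No paired analysis was possible because the labels give no replicate numbers to pair by; arrays were matched by time alone, as the block of the shared fit. In the shared fit, none of the 21 probe sets was called under any of the 12 alternatives, and in these the smallest adjusted p of a member lay between 0.550 and 0.887. Cdkn2b in APAP against control was -0.076 log2 in place of 0.29 without the 3 arrays that stood apart in the dap ratio. In that fit the 2 h array was the only one of APAP, so the value is not a shared effect. It was set against a control level fitted from the AMAP and control arrays of 2 and 6 h. The measured Cdkn2b difference of APAP from control at 2 h was 0.04 log2, of the other sign. Of the counts of 2-fold members, at 1.5-fold those of APAP against control became 3 higher at 2 h and 5 higher and 2 lower at 24 h. Those of AMAP against control became 3 higher at 2 h, 2 higher and 2 lower at 6 h, and 2 higher and 2 lower at 24 h. Those of APAP against AMAP became 2 higher at 2 h, 4 higher and 3 lower at 6 h, and 4 higher and 1 lower at 24 h. At 2 h Ccnd2 1434745_at (-0.89) and 1455956_x_at (-0.88) also passed 1.5-fold lower there. The share of all probe sets was not taken at 1.5-fold or under other normalizations, so those counts stand without a background. Cyclic loess gave 1 lower for APAP against control at 24 h (Cdkn1b), 1 higher for AMAP against control at 2 h (Ccnd2) and 0 lower at 6 h (Ccnd2 lost). Median centring gave 0 lower for AMAP against control at 6 h (Ccnd2 lost), 0 higher for APAP against control at 24 h (Ccnd3 lost) and 1 higher for APAP against AMAP at 24 h (Ccnd1 lost). With 1 probe set per gene, APAP against control at 2 h gave 0 higher and 1 lower, where 0.508% and 0.621% of all genes were. AMAP against control gave 0 lower at 6 h, where 0.137% were. APAP against AMAP gave 2 lower at 2 h and 1 higher at 24 h, where 0.686% and 1.04% were. Without the filter on low values the 18 counts stayed within 1.5 times. The causes were not tested, beyond the lower threshold and the smaller number of probe sets themselves. Of the single-time differences, 179 moved by less than the residual SD under cyclic loess and 10 by more, all 10 of dim probe sets (Ccnd2 1416123_at, Cdkn1b 1419497_at and Cdkn2b), and 1 moved by more under median centring. Ccng2 at 2 h stayed 2-fold lower in APAP in both probe sets under each normalization. Dim signal limits what can be said of Cdkn2b and of 1 Cdkn1b probe set.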

Other observations

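At the later times some pathway genes outside the rule for named genes were 2-fold apart, and they are named here after their values were seen. At 6 h the E-type cyclins, which follow the D-type cyclins in G1, went opposite ways between the isomers. Ccne1 read 8.29 in APAP, 6.86 in AMAP and 7.24 in control, a difference of APAP from AMAP of 1.43. That of Ccne2 was -1.35, in a dim probe set with a mean of 5.38, below the 5.66 median of probe-set means. Sp1 was lower in APAP than in AMAP by -2.89. E2f5, which pairs with pocket proteins, was at -1.04 in APAP against AMAP. At the same time Fbxw7, the ligase subunit that marks cyclin E for destruction, was lower in APAP than in control by -1.23, and Myc by -1.32. At 24 h Cdkn1a was higher than control by 1.42 in APAP, and Txnip by 2.52. Tgfbr1, the type I TGF-beta receptor, was lower than control by -2.68 in APAP and -1.08 in AMAP. These values rest on the arrays that stood apart in the dap ratio. For APAP against AMAP at 6 h 2.27% of 12393 genes were 2-fold higher and 4.49% lower. For APAP against control 2.92% were 2-fold lower at 6 h, and 1.93% higher and 2.15% lower at 24 h, and for AMAP against control 1.48% were lower at 24 h.

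Control medium also differed between times. Both Ccng2 probe sets and Cdkn1b 1434045_at were lower at 6 h than at 2 h in control, by -0.997, -0.82 and -0.72 log2. They were higher again at 24 h than at 6 h, by 1.10, 0.73 and 0.58. None of these falls reached 2-fold, where 0.632% of all probe sets were 2-fold lower at 6 h than at 2 h in control. A comparison of a treatment at 6 h with its control of the same time is thus set against a lower reading of these genes than a comparison at 2 h or 24 h.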
